A study of Mus musculus with 24 samples.

Results

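The genes described here are the 5 rows of a mouse microglia count table named Isg15, Uba7, Ube2l6, Herc6 and Usp18, out of 55434 gene rows. Together they encode the ISG15 conjugation pathway, a ubiquitin-like modification system. The rows were taken by gene name, and all 5 passed the filter on low counts in both fits described below. They were followed over 24 RNA-seq libraries in 8 groups of 3.

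Microglia, the resident macrophages of the brain, were selected as CD11b-positive cells with magnetic beads after enzymatic digestion of brain tissue. The 6 cultured groups came from neonatal MRL/lpr mice, a lupus-prone strain that carries the lpr mutation of Fas, and their unstimulated control carries the same mutation. These cells were grown for 48 h in DMEM/F-12 with 10% fetal bovine serum and then kept for 6 h with interferon alpha (IFNa), interferon gamma (IFNg), tumour necrosis factor (TNFa), interleukin 6 (IL-6), the mixture of the 4, or no cytokine. The labels give no cytokine doses. The other 2 groups were untreated cells of 16-week-old MRL/lpr mice and of 16-week-old MRL/MpJ mice, the parent strain without lpr. Nothing in the labels says that replicates came from separate animals or cultures, so each p-value measures the spread between these libraries only.

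ISG15 is made of ubiquitin-like folds and is joined to lysines of other proteins by an enzyme cascade parallel to that of ubiquitin. UBA7 is the E1 enzyme that activates ISG15, UBE2L6 is the E2 carrier that receives it, and HERC6 is the main E3 ligase in the mouse, which lacks a HERC5 gene. USP18 removes ISG15 from its targets and, apart from that activity, binds the IFNAR2 chain of the type I interferon receptor and dampens its signal. All 5 are textbook interferon-stimulated genes. Loss of USP18 in microglia is known to cause a destructive microgliopathy in mice, and loss of USP18 in people an interferonopathy.

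By GENCODE M21 on mm10, Isg15 (ENSMUSG00000035692) lies on the minus strand at chr4:156199424-156200818. The E1 gene Uba7 (ENSMUSG00000032596) is at chr9:107975505-107984060 and the E2 gene Ube2l6 (ENSMUSG00000027078) at chr2:84798828-84810335, both on the plus strand. The ligase gene Herc6 (ENSMUSG00000029798) occupies chr6:57581000-57664632 and the protease gene Usp18 (ENSMUSG00000030107) chr6:121245906-121270917, also on the plus strand. All 5 are annotated as protein coding. No other annotated gene overlaps Isg15 or Ube2l6. Uba7 overlaps Gm20661 on the same strand, which held 32 reads in all 24 libraries and at most 9 in any of them. Usp18 overlaps Gm44148 on the opposite strand, with 56 reads in all, and the 2 models that overlap Herc6 had 0 reads.

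The promoter of Isg15 is shown because interferon response elements upstream of a start site are how type I interferon is known to act on such genes. The RefSeq tables on GRCm38.p6, whose chromosomes are those of mm10, held a promoter window for 4 of the 5 genes, and Usp18 was not among them. The 250 bases before the Isg15 start, chr4:156200819-156201068 on the minus strand, are written 5′ to 3′ with matches to the core of the interferon-stimulated response element (GAAANNGAAA, searched on both strands) in capitals.

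Isg15 promoter: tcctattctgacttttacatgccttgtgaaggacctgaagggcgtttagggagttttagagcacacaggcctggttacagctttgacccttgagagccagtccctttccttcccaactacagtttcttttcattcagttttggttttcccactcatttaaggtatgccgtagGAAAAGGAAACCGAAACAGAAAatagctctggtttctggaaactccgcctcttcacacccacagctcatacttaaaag

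There were 3 overlapping matches, GAAAAGGAAA from base -78 to -69, GAAACCGAAA from -72 to -63 and GAAACAGAAA from -66 to -57, counted from the start site. Among 32851 RefSeq promoter windows of 300 bases (250 before and 50 after the start), 3.44% held at least 1 match and 5 windows (0.0152%) held 3 or more. The windows of Uba7, Ube2l6 and Herc6 held 0 matches to this core. None of the 4 windows held the gamma-activated site core TTCNNNGAA, which 8.30% of all windows do. A match is a string of letters, and no binding was measured.

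Levels are given as CPM (counts per M counts, with M for mega, scaled by TMM over all 24 libraries), in replicate order 1, 2, 3. Isg15, the modifier itself, stood at 67.6, 79.7 and 195 CPM in the 3 unstimulated libraries. With IFNa it was 1029, 1155 and 1103 CPM, and with the mixture 1568, 1933 and 2030.3 CPM. All 6 of these libraries lay far above every unstimulated library, and the mixture libraries lay above the IFNa libraries. With IFNg the values were 365, 412 and 647 CPM, above the unstimulated libraries and below those with IFNa. TNFa gave 108, 147 and 374 CPM and IL-6 gave 68.4, 114 and 211 CPM, both overlapping the unstimulated range. Adult cells held little Isg15 mRNA, with 3.74, 7.58 and 3.79 CPM in MRL/lpr and 4.39, 5.35 and 2.12 CPM in the MRL/MpJ libraries, which is 33 to 144 reads a library.

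The E1 gene Uba7 was also high with IFNa, the mixture and IFNg in culture, and high in adult MRL/lpr cells. It was at 41.1, 58.6 and 78.7 CPM without cytokine, 226, 307 and 277 CPM with IFNa, 274, 301 and 376 CPM with the mixture and 146, 181 and 220 CPM with IFNg. TNFa (44.5, 57.3 and 67.9 CPM) and IL-6 (55.0, 60.7 and 106 CPM) overlapped the unstimulated libraries. Adult MRL/lpr libraries held 224, 201 and 208 CPM and adult MRL/MpJ libraries 43.9, 40.3 and 48.5 CPM, with no overlap. The adult MRL/lpr level thus overlapped that of cultured cells given IFNg.

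The E2 gene Ube2l6 stood at 127, 169 and 316 CPM without cytokine. It was at 473, 534 and 637 CPM with IFNa, 459, 533 and 675 CPM with the mixture and 277, 361 and 489 CPM with IFNg. Of these 3 groups, only IFNg overlapped the unstimulated range. With TNFa (128, 170 and 281 CPM) and IL-6 (130, 185 and 310 CPM) the values nearly repeated the unstimulated ones. Adult MRL/lpr libraries (18.1, 28.0 and 18.5 CPM) lay below adult MRL/MpJ libraries (35.6, 36.1 and 28.9 CPM), the reverse of the order for Uba7.

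The ligase gene Herc6 was low without cytokine, at 16.0, 17.6 and 49.5 CPM. IFNa gave 241, 289 and 239 CPM, the mixture 271, 276 and 313 CPM and IFNg 124, 149 and 166 CPM, and these 9 libraries all lay above the unstimulated ones. IL-6 (28.2, 31.6 and 32.3 CPM) fell inside the unstimulated range, and TNFa (25.0, 23.2 and 84.0 CPM) overlapped it. Adult MRL/lpr libraries held 17.1, 18.2 and 18.1 CPM, all above the 8.58, 10.6 and 6.67 CPM of adult MRL/MpJ.

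The protease gene Usp18 reached high levels with IFNa and the mixture but not with IFNg. Without cytokine it stood at 50.5, 59.5 and 127 CPM. IFNa gave 951, 1093 and 636 CPM and the mixture 1119.9, 1277 and 1130.07 CPM, while IFNg gave 102, 131 and 172 CPM, which overlapped the unstimulated libraries. TNFa (63.5, 69.9 and 244 CPM) overlapped them too, and IL-6 had 23.2, 25.2 and 79.8 CPM, with 2 of its 3 libraries below every unstimulated one. In adults, MRL/lpr libraries held 3.63, 8.43 and 4.4 CPM and MRL/MpJ libraries 2.54, 2.80 and 2.24 CPM, with no overlap.

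**Figure D1:**
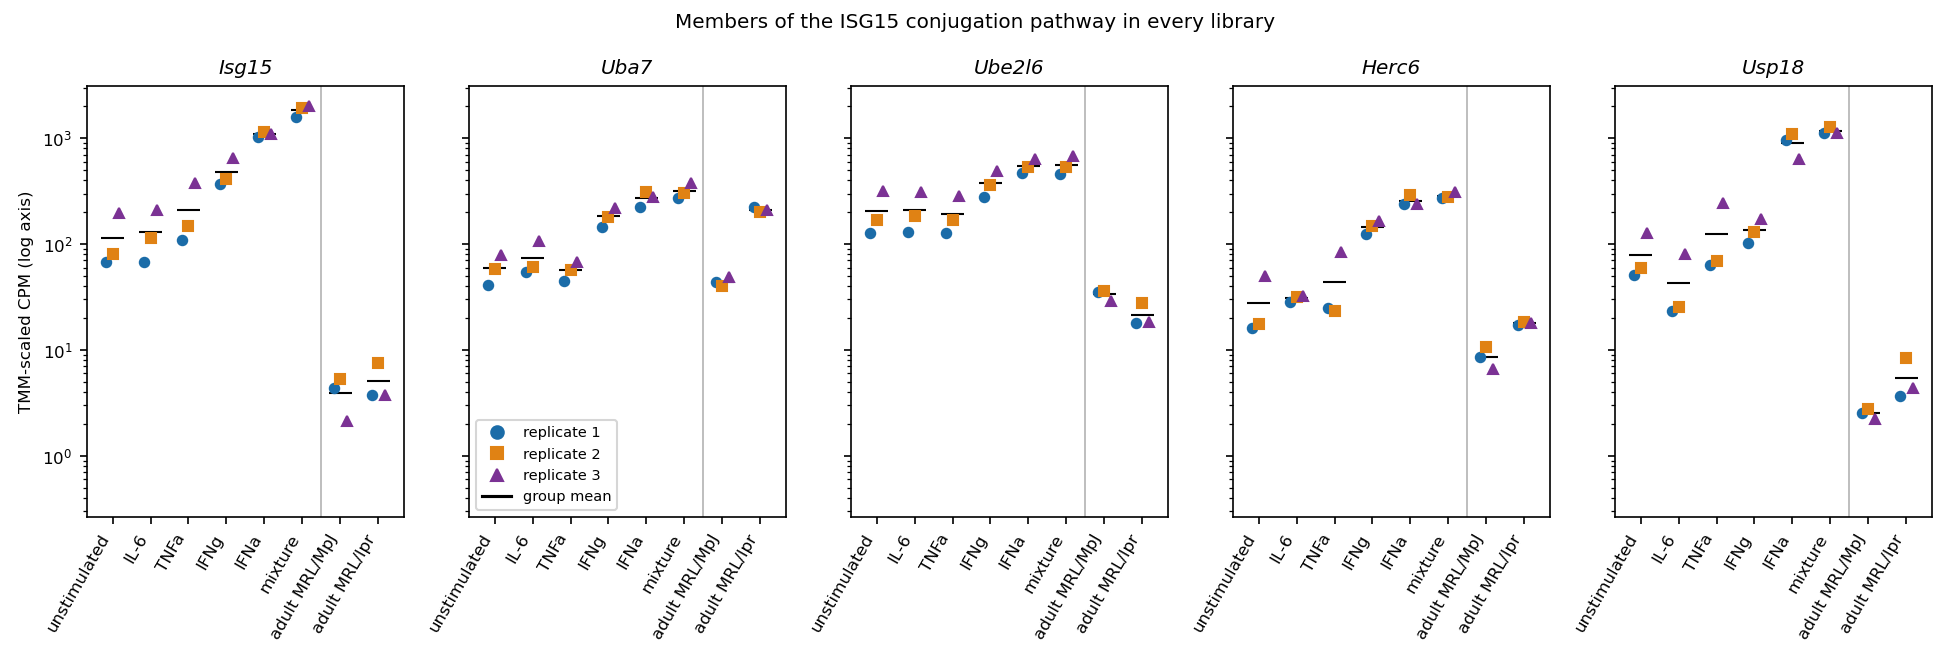
TMM-scaled CPM (log axis) of each gene in every library, by group, with a marker for each replicate number and a line at the group mean. The mixture and IFNa have the highest group means for all genes, and Uba7 in adult MRL/lpr (201 to 224 CPM) lies far above adult MRL/MpJ (40.3 to 48.5 CPM).

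Ordered by group mean, the mixture was highest and IFNa next for each of the 5 genes, and the 2 groups did not overlap for Isg15 and Usp18. The lowest group was adult MRL/MpJ for Isg15, Uba7, Herc6 and Usp18 and adult MRL/lpr for Ube2l6. The ratio of the highest to the lowest group mean was 466 for Isg15, 465 for Usp18, 33.3 for Herc6, 25.8 for Ube2l6 and 7.17 for Uba7. Unstimulated neonatal cells exceeded adult MRL/MpJ cells 28.9-fold in Isg15, 31.2-fold in Usp18, 6.08-fold in Ube2l6, 3.21-fold in Herc6 and 1.34-fold in Uba7. Age, strain and culture differ together between these 2 groups and cannot be told apart. Adult MRL/lpr cells share the strain of the cultured cells, but age and culture still differ together. Against them the unstimulated mean was higher for Isg15 (114 against 5.04 CPM), Usp18 (78.9 against 5.49) and Ube2l6 (204 against 21.5). Herc6 (27.7 against 17.8 CPM) overlapped, and Uba7 was lower in unstimulated cells (59.5 against 211 CPM). No test was made of either contrast. Scaled by gene length, Isg15 was the most abundant of the 5 in unstimulated cells at 162 CPM per kb, followed by Ube2l6 (102), Usp18 (28.3), Uba7 (8.89) and Herc6 (2.98). In adult MRL/lpr cells the order on this scale was Uba7 (31.5 CPM per kb), Ube2l6 (10.8), Isg15 (7.17), Usp18 (1.97) and Herc6 (1.92).

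All 5 genes rose with IFNa against unstimulated cells by edgeR's quasi-likelihood test at a Benjamini-Hochberg adjusted p under 0.05, where 9.41% of 14626 genes rose. Their median log2 fold change was 3.26, against -0.04 over all genes tested. Usp18 rose 11.8-fold (log2 3.55 ± 0.585 SE, edgeR adjusted p = 0.000662, n = 3 per group) and Isg15 rose 9.94-fold (3.31 ± 0.517, adjusted p = 0.000422). Herc6 rose 9.57-fold (log2 3.26 ± 0.476, edgeR adjusted p = 0.000243) and Uba7 4.69-fold (2.23 ± 0.262, adjusted p = 3.01e-05). The smallest increase was that of Ube2l6, 2.78-fold (log2 1.47 ± 0.364, edgeR adjusted p = 0.0112). The Ube2l6 call was lost without unstimulated replicate 1 (edgeR adjusted p = 0.0575) or 2 (0.0636). In bulk libraries such as these, fewer cells of a type and less RNA per cell cannot be told apart.

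The mixture also raised all 5 genes, where 15.7% of genes tested rose. Isg15 rose 16.8-fold (log2 4.07 ± 0.535, edgeR adjusted p = 2.98e-05) and Usp18 15.5-fold (3.95 ± 0.596, adjusted p = 0.00011). Increases were 10.7-fold for Herc6 (log2 3.43 ± 0.480, edgeR adjusted p = 5.21e-05), 5.53-fold for Uba7 (2.47 ± 0.264, 2.93e-06) and 2.83-fold for Ube2l6 (1.5 ± 0.365, 0.00475). Set directly against IFNa alone, 0 of 5 genes passed edgeR's test, where 7.94% of all genes did. None had an unadjusted p under 0.05 (the smallest was 0.132), and DESeq2 and limma-voom also called 0. Isg15 had the largest difference, 0.76 ± 0.474 on the log2 scale (edgeR adjusted p = 0.435), with every mixture library above every IFNa library, and Ube2l6 the smallest, 0.03 ± 0.357 (0.990). With only these 2 groups in the fit, Isg15 was called (0.74, edgeR adjusted p = 0.0254).

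IFNg raised 3 of the 5 genes, where 8.57% of genes rose. The ligase gene Herc6 rose 5.45-fold (log2 2.45 ± 0.462, edgeR adjusted p = 0.00209), Isg15 4.30-fold (2.1 ± 0.492, 0.00953) and Uba7 3.17-fold (1.66 ± 0.258, 0.000343). Ube2l6 (log2 0.93 ± 0.360, edgeR adjusted p = 0.116) and Usp18 (0.82 ± 0.535, 0.420) did not pass. With the replicate number as a block, Ube2l6 did pass (log2 0.99, edgeR adjusted p = 6.88e-05), and so it did in DESeq2 (0.0468) and without unstimulated replicate 3 (1.39, edgeR 0.0232). The Isg15 call was lost without unstimulated replicate 1 (edgeR adjusted p = 0.0529) or 2 (0.0564).

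The 2 interferons were then compared with each other. Usp18 was 6.65-fold lower with IFNg than with IFNa (log2 -2.73 ± 0.564, edgeR adjusted p = 0.0104) and was the 1 gene of 5 that passed, where 2.36% of all genes were lower. Isg15 (log2 -1.21 ± 0.479, edgeR adjusted p = 0.206), Uba7 (-0.57 ± 0.251, 0.271) and Herc6 (-0.81 ± 0.437, 0.411) were lower in each IFNg library than in any IFNa library but missed the threshold, and Ube2l6 (-0.54 ± 0.358, 0.537) overlapped. How many of all genes lacked overlap between these groups was not counted. With the replicate number as a block, 4 of 5 passed, namely Usp18, Isg15 (log2 -1.30, edgeR adjusted p = 0.0181), Uba7 (-0.59, 0.00306) and Ube2l6 (-0.58, 0.0106). Without IFNg replicate 1 (edgeR adjusted p = 0.0649) or 2 (0.0636) the Usp18 call was lost.

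Against IFNg alone, the mixture was higher in 3 of 5 genes, where 6.45% of genes were higher. Usp18 was 8.77-fold higher (log2 3.13 ± 0.574, edgeR adjusted p = 0.00199), Isg15 3.90-fold (1.96 ± 0.489, 0.0135) and Uba7 1.75-fold (0.80 ± 0.252, 0.0425). Herc6 (log2 0.98 ± 0.438, edgeR adjusted p = 0.172) and Ube2l6 (0.57 ± 0.358, 0.365) did not pass, and Ube2l6 passed with the replicate block (0.59, 0.00500). Isg15 was lost without IFNg replicate 1 (edgeR adjusted p = 0.0679) or 2 (0.0641), and Uba7 without IFNg replicate 1 (0.177), IFNg replicate 2 (0.123) or mixture replicate 3 (0.0832). The comparisons with IFNg, IFNa and the mixture share libraries, so their agreement is not independent.

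TNFa and IL-6 called 0 of 5 genes, where 8.10% and 0.978% of genes changed. By unadjusted p under 0.05, by DESeq2 and by limma-voom the count was also 0 in both. The largest difference with TNFa was that of Isg15, 0.91 ± 0.477 on the log2 scale (edgeR adjusted p = 0.346), and the largest with IL-6 that of Usp18, -0.84 ± 0.538 (0.690). Within replicate numbers, IL-6 over unstimulated Usp18 was 0.461, 0.425 and 0.630, lower in 3 of 3. The same ratios for Isg15 with TNFa were 1.6, 1.85 and 1.92, higher in 3 of 3. Also higher in 3 of 3 with TNFa were Herc6 (1.56, 1.31 and 1.70) and Usp18 (1.26, 1.17 and 1.92). With IL-6 so were Isg15 (1.01, 1.43 and 1.08) and Uba7 (1.34, 1.03 and 1.35). Uba7 and Ube2l6 with TNFa and Ube2l6 with IL-6 went both ways. The share of all genes with such agreement was not counted. For Herc6 with IL-6 the ratios were 1.76, 1.79 and 0.653, so only number 3, left out below, was lower. When replicate number 3 was left out of all 6 cultured groups, a choice made after its levels were seen, IL-6 lowered Usp18 (log2 -1.12, edgeR adjusted p = 0.00323) and raised Herc6 (0.89, 0.00807), and TNFa raised Herc6 (0.56, 0.0240).

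**Figure D2:**
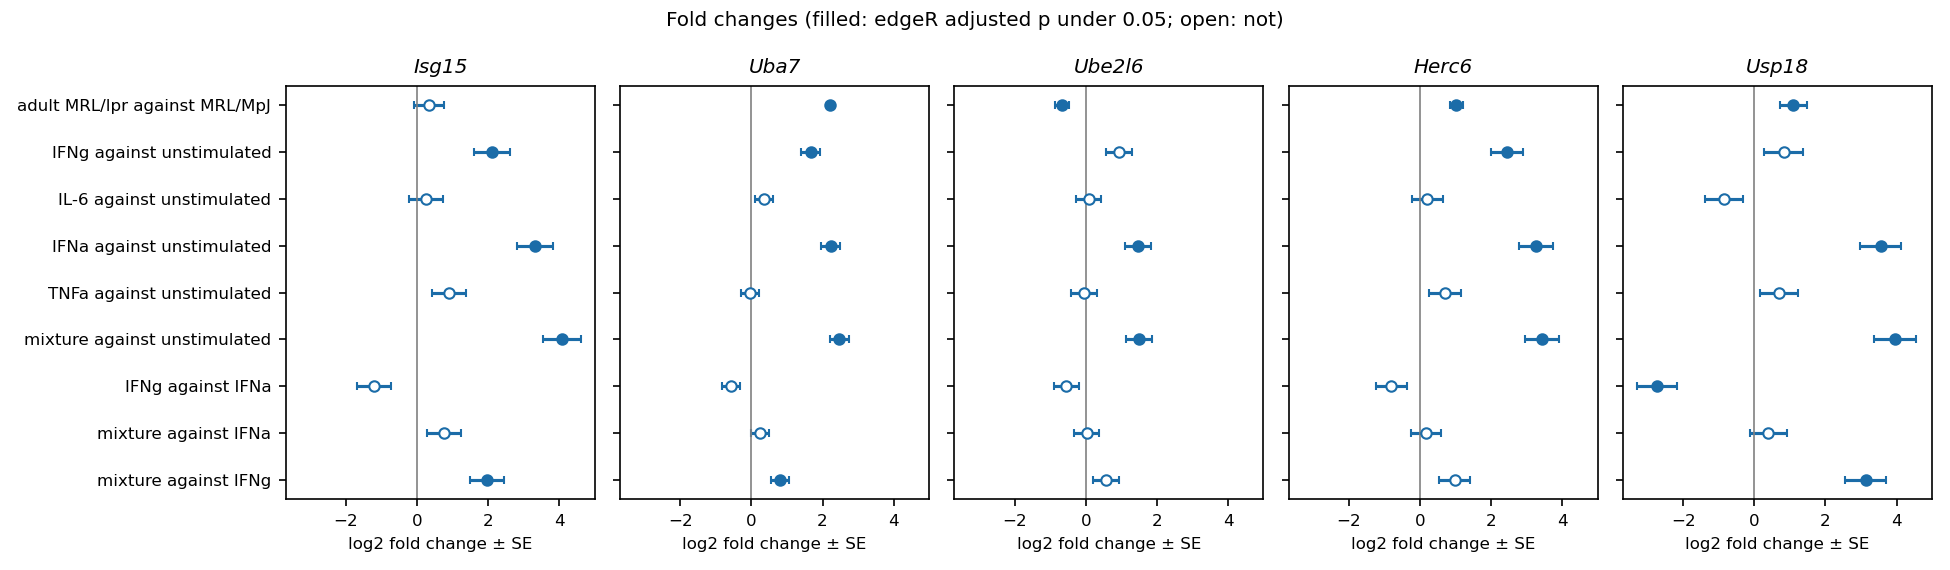
Log2 fold change with its SE for each gene in the 9 comparisons, filled where the edgeR adjusted p is under 0.05 and open where it is not. All 5 markers are filled for IFNa and for the mixture against unstimulated cells, while for IL-6 and TNFa all are open.

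The 3 replicate numbers differed in their unstimulated level and in the size of the response. Isg15 in unstimulated replicate 3 was 2.65 times the mean of replicates 1 and 2, Usp18 2.30 times and Herc6 2.94 times. With IFNa these ratios were 1.01, 0.622 and 0.901. Within numbers 1, 2 and 3, IFNa over unstimulated cells was, for Isg15, 15.2-fold, 14.5-fold and 5.65-fold and, for Usp18, 18.8-fold, 18.33-fold and 5.02-fold. For Herc6 it was 15.0-fold, 16.28-fold and 4.81-fold, and for Uba7 5.47-fold, 5.23-fold and 3.51-fold. Each gene was higher in 3 of 3, and number 3 had the smallest ratio for each of these 4. Astrocyte marker genes summed to 198 to 244 CPM in replicate number 1 and 19.3 to 71.5 CPM in numbers 2 and 3. The part of astrocytes or of any other cell type in the replicate differences was not tested.

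In adult cells 4 of 5 genes differed between strains, where 45.7% of 13799 genes did (24.1% higher and 21.6% lower in MRL/lpr). This count was not tested against that share, and 5 genes are too few to tell it from the background. Uba7 was 4.66-fold higher in MRL/lpr (log2 2.22 ± 0.109, edgeR adjusted p = 8.56e-08, n = 3 per strain), rank 763 of 13799 by log2 fold change. Herc6 was 2.03-fold higher (log2 1.02 ± 0.192, edgeR adjusted p = 0.00107) and Usp18 2.14-fold higher (1.1 ± 0.385, 0.0354). Ube2l6 was 1.59-fold lower (log2 -0.66 ± 0.187, edgeR adjusted p = 0.0123), and Isg15 did not pass (0.33 ± 0.414, 0.543).

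The Uba7 difference was 2.15 to 2.48 on the log2 scale under the 14 alternatives run and was called in each. The Usp18 call was lost without MRL/lpr replicate 2 (log2 0.65, edgeR adjusted p = 0.208) or MRL/MpJ replicate 1 (0.0780), 2 (0.0525) or 3 (0.0830). The Ube2l6 call was lost without MRL/lpr replicate 1 (edgeR adjusted p = 0.0624) or 3 (0.0589) or MRL/MpJ replicate 1 (0.0531), and when counts were scaled by their totals alone (-0.41, 0.0968). Without MRL/lpr replicate 2 the Isg15 difference was -0.09. A single fit of all 24 libraries left 1 of the 5 calls, that of Uba7, with Herc6 at an edgeR adjusted p of 0.0879, Ube2l6 at 0.107 and Usp18 at 0.220. limma-voom did not call Usp18 (adjusted p = 0.0746).

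Other measures moved with strain as well, where 24.1% of all genes tested were higher in MRL/lpr and 21.6% lower. Of 9 microglia markers 7 were lower and 0 higher in MRL/lpr, with a summed level of 35182 to 38122 CPM against 62116 to 63989 CPM, and none was at 0. Of 12 T and NK cell markers 7 were higher, with a sum of 48.4 to 54.0 CPM against 10.1 to 28.0 CPM. Cd8b1 and Klre1 were at 0 in all MRL/MpJ libraries and passed the filter on low counts only through MRL/lpr. Such genes could only come out higher. All 10 immediate early genes that respond to tissue dissociation were higher, with a sum of 2523 to 2728 CPM against 884 to 976 CPM. Border macrophage markers were lower in 5 of 6, with 69.3 to 143 CPM against 246 to 294 CPM, monocyte markers were higher in 2 of 5, with 50.6 to 168 CPM against 54.5 to 68.6 CPM, and oligodendrocyte markers lower in 3 of 4, with 84.6 to 147 CPM against 150 to 225 CPM. B cell markers (12.9 to 15.7 against 24.8 to 30.7 CPM, 1 of 2 tested lower) and neuron markers (3.49 to 10.4 against 1.68 to 3.21 CPM, 1 of 3 tested higher) did not overlap between strains. The monocyte sums did overlap. Their part in the differences of Uba7, Ube2l6, Herc6 and Usp18 was not tested. No batch is labelled, so strain and preparation cannot be told apart.

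**Figure D3:**
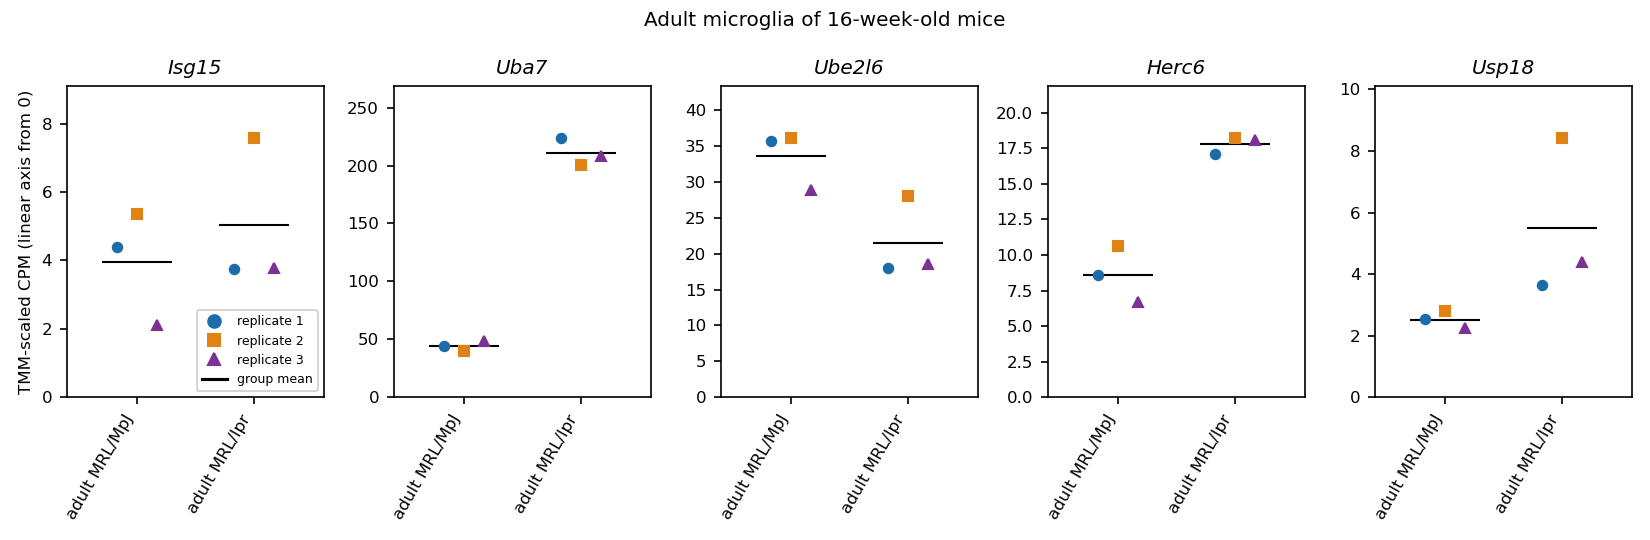
TMM-scaled CPM of the 5 genes in the 6 adult libraries, on linear axes that start at 0 and differ between panels, with a marker per replicate and a line at the mean. The strains do not overlap for Uba7, Ube2l6, Herc6 and Usp18, and Ube2l6 is the gene whose MRL/lpr libraries are the lower ones. The share of all genes without overlap was not counted, and 45.7% of all genes tested were called between the strains.

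The balance between ISG15 and its enzymes was expressed as the ratio of each gene to Isg15 within a library, per kb of gene length. In unstimulated cells the ratio of the E2 gene Ube2l6 to Isg15 was 0.570 to 0.746, and with the mixture it was 0.0972 to 0.117, with no overlap. With IFNa it was 0.162 to 0.203, with IFNg 0.266 to 0.309 and with TNFa 0.265 to 0.419, none overlapping the unstimulated range. The ratio of Uba7 to Isg15 was 0.0424 to 0.0773 in unstimulated cells, 0.0230 to 0.0280 with IFNa and 0.0164 to 0.0195 with the mixture, and with IFNg (0.0357 to 0.0461) and TNFa (0.0190 to 0.0432) it overlapped the unstimulated range. For Herc6 it was 0.0167 to 0.0192 without cytokine, overlapping at 0.0164 to 0.0189 with IFNa, higher at 0.0194 to 0.0273 with IFNg and lower at 0.0108 to 0.0131 with the mixture. The ratio of Usp18 to Isg15 was 0.164 to 0.188 without cytokine, 0.145 to 0.239 with IFNa and 0.140 to 0.180 with the mixture, which both overlap the range without cytokine. With IFNg the Usp18 ratio was 0.0671 to 0.0801 and with IL-6 0.0558 to 0.0953, both below every unstimulated library.

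In adult cells the Uba7 and Ube2l6 ratios lay above those of every cultured library. The Uba7 ratio was 2.78 to 6.28 in MRL/lpr libraries and 0.790 to 2.41 in those of MRL/MpJ, and the Ube2l6 ratio 1.30 to 1.72 and 2.38 to 4.80. The Herc6 ratio was 0.182 to 0.361 in the first strain and 0.148 to 0.238 in the second, also above the cultured range but below 1. The Usp18 ratio, 0.245 to 0.292 in MRL/lpr libraries and 0.132 to 0.267 in those of MRL/MpJ, overlapped the cultured libraries in MRL/MpJ. Over 24 such ratio comparisons (4 genes in 6 contrasts) the smallest two-sided p of an exact permutation test was 0.1, which is the smallest that 3 libraries against 3 allow, so none could pass. These adult ratios rest on the few Isg15 reads given above.

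**Figure D4:**
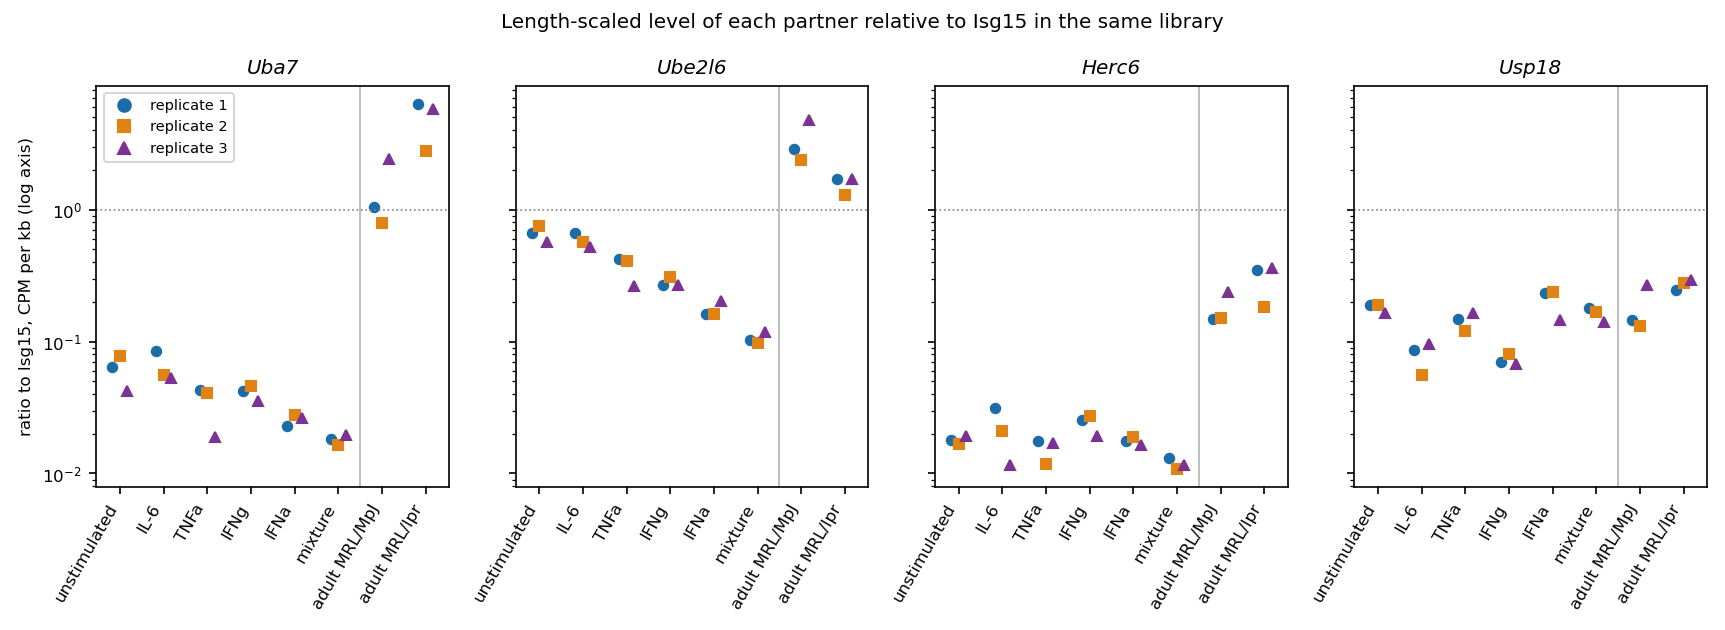
Ratio of each enzyme gene to Isg15 in the same library, in CPM per kb (log axis), by group and replicate, with a dotted line at equal levels. The median ratios of Ube2l6 and Uba7 are lowest with the mixture and highest in adult cells, while the Usp18 ratio is lower with IFNg (0.0671 to 0.0801) than without cytokine (0.164 to 0.188).

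Related genes of ubiquitin conjugation were read from the same fits. In a list of 12 ubiquitin counterparts (activating enzymes, the E2 closest to UBE2L6, HERC and other ligases, and USP proteases), 2 rose and 0 fell with IFNa, where 9.41% of all genes rose, with a median log2 change of 0.23. They were Herc1, a giant HERC protein (0.81 ± 0.172, edgeR adjusted p = 0.0038), and Arih1, an ariadne ligase (0.56 ± 0.161, 0.0256). The Arih1 call was lost without IFNa replicate 2 (edgeR adjusted p = 0.0838) or 3 (0.0805) or unstimulated replicate 1 (0.122) or 2 (0.103). The ubiquitin E1 gene Uba1 changed by 0.22 on the log2 scale with IFNa (edgeR adjusted p = 0.432) and Ube2l3, the E2 most like Ube2l6, by 0.01 ± 0.145 (0.986). With the mixture 6 of 12 rose and 1 fell, where 15.7% of all genes rose, among those that rose Uba6, an alternative ubiquitin E1 (log2 1.1 ± 0.254, edgeR adjusted p = 0.00316), and Arih1 (0.99 ± 0.162, 0.00018). In adult cells 3 of the 11 tested were higher in MRL/lpr and 3 lower, a count near the 45.7% called over all genes. Herc1 was higher (1.32 ± 0.167, edgeR adjusted p = 7.51e-05), while Uba6 (-0.87 ± 0.162, 0.00102) and Ube2l3 (-0.65 ± 0.107, 0.000457) were lower.

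Of 8 other ubiquitin-like modifiers, 2 rose with IFNg and 4 with the mixture, where 8.57% and 15.7% of all genes rose, and 0 fell. Both counts include Ubd, which passed the filter on low counts only through the IFNg and mixture libraries. Its calls there were largely set by that filter. Apart from Ubd, only Sumo2 rose with IFNg. Ubd, which encodes FAT10, another modifier with a pair of ubiquitin folds, had 0 reads over the 3 unstimulated and 0 over the 3 IFNa libraries. It had 42 reads over the IFNg libraries and 101 over the mixture libraries. With 3 counts taken as the floor of a group's sum, this is at least 13-fold higher with IFNg and at least 30.3-fold higher with the mixture than without cytokine. In adult cells 4 of the 7 tested were lower in MRL/lpr and 0 higher, where 21.6% of all genes were lower, as with Sumo2 (log2 -0.58 ± 0.112, edgeR adjusted p = 0.00129).

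The type I interferon receptor, its JAK kinases and the factors of ISGF3, a complex known to carry the type I interferon signal, form a list of 7. Binding of ISGF3 at the 5 genes was not measured. With IFNa 3 rose and 1 fell, and with IFNg 2 rose and 1 fell, where 9.41% and 8.57% of all genes rose. Stat2 (log2 1.84 ± 0.401, edgeR adjusted p = 0.00496) and Tyk2 (1.54 ± 0.244, 0.000397) rose with IFNa. Irf9, the DNA-binding subunit, did not pass with IFNa (log2 0.33 ± 0.169, edgeR adjusted p = 0.255). In adult cells 4 of 7 were higher in MRL/lpr and 1 lower, where 45.7% of all genes were called, led by Tyk2 (1.25 ± 0.121, edgeR adjusted p = 1.17e-05) and Stat2 (1.22 ± 0.139, 3.58e-05). With TNFa, where 8.10% of all genes were called, 2 of 7 rose, among them Tyk2 (1.19 ± 0.242, edgeR adjusted p = 0.0044).

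Of 8 proteins known as ISG15 targets, 6 genes rose with IFNa, 4 with IFNg and 7 with the mixture, and 0 fell. Over all genes 9.41%, 8.57% and 15.7% rose in these comparisons. The antiviral GTPase gene Mx1 rose with IFNa by 4.05 ± 0.470 on the log2 scale (edgeR adjusted p = 3.64e-05), Ifit1 by 3.8 ± 0.600 (0.000491) and the RNA sensor gene Ifih1 by 3.6 ± 0.467 (8.85e-05). In adult cells 5 of 8 were higher in MRL/lpr and 0 lower, where 24.1% of all genes were higher. Mx1 differed most (log2 5.12 ± 0.407, edgeR adjusted p = 2.67e-06, 586 reads against 12 over the 3 libraries), and Irf3 was also higher (1.03 ± 0.105, 1.63e-05). In MRL/MpJ libraries Mx1 stood at 0.128 to 0.399 CPM, so it passed the filter on low counts only through the MRL/lpr libraries. Its call, 1 of the 5, was largely set by that filter. With TNFa 1 rose, Ifit1 (log2 1.93 ± 0.557, edgeR adjusted p = 0.0450), and this call was lost without TNFa replicate 3 (0.337) or unstimulated replicate 1 (0.172) or 2 (0.189). LFA-1, the receptor of free ISG15, has the subunits ITGAL and ITGB2. Itgal was 3.87-fold higher in adult MRL/lpr (log2 1.95 ± 0.604, edgeR adjusted p = 0.0475), but not without MRL/lpr replicate 1 (0.145) or 3 (0.0941), without MRL/MpJ replicate 1 (0.0611), 2 (0.113) or 3 (0.134), or with the replicate block (0.128). It was 2.88-fold higher with TNFa (log2 1.52 ± 0.437, edgeR adjusted p = 0.0431), but not without TNFa replicate 2 (0.0823) or 3 (0.195) or unstimulated replicate 1 (0.16) or 2 (0.181). With the mixture Itgal was 2.44-fold higher (log2 1.28 ± 0.434, edgeR adjusted p = 0.0335), but not without mixture replicate 3 (0.187) or unstimulated replicate 1 (0.118) or 2 (0.124). Itgb2 was lower in adult MRL/lpr (log2 -0.42 ± 0.0928, edgeR adjusted p = 0.00286), though not when counts were scaled by their totals alone (0.139).

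The 5 genes themselves did not share 1 pattern. Over the 8 group means of log2 CPM, Pearson's r was 0.98 between Isg15 and both Ube2l6 and Usp18 and 0.92 between Isg15 and Herc6, but 0.50 between Isg15 and Uba7 and 0.38 between Uba7 and Ube2l6. All these values rest on the same 8 points, which include adult as well as cultured cells. Unstimulated cells exceeded adult MRL/MpJ cells 28.9-fold in Isg15 but 1.34-fold in Uba7. The mean of Uba7 in adult MRL/lpr cells (211 CPM) was above that with IFNg (182 CPM). Among 9641 genes ranked this way, those most like Usp18 were Ifit3 (r = 0.9973), Rsad2 (0.9937) and Znfx1 (0.9915). The closest to Isg15 were Fam241a (0.9965), Optn (0.9955) and Trip12 (0.9951), and to Herc6 Golga3 (0.9918), Homer1 (0.9901) and Max (0.9900). Uba7 had looser neighbours, Hdc (0.9756), D5Ertd579e (0.9708) and Sugp1 (0.9668), and Ube2l6 was followed by Actr2 (0.9934), Slirp (0.9925) and Eif2s1 (0.9924). These correlations are descriptions, with no test.

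Libraries held 10.08 to 19.32 M counts. The microglia markers summed to 4795 to 7985 CPM in the cultured libraries and none was at 0. With IFNa their sum, 5147 to 5975 CPM, lay below the 6161 to 7985 CPM of unstimulated cells, and 2 of 9 were higher and 2 lower. Border macrophage markers summed to 311 to 379 CPM without cytokine, 512 to 550 CPM with IL-6 and 246 to 289 CPM with IFNa. Of the 5 tested, 1 rose with IL-6, 1 rose with IFNg and 1 fell with IFNa. In the cultured groups the immediate early genes also moved with stimulation, with 720 to 894 CPM in unstimulated cells, 1303 to 1469 CPM with IFNa and 1691 to 2092 CPM with the mixture. The 5 monocyte markers, none at 0, summed to 33.8 to 49.9 CPM in unstimulated cells, 160 to 183 CPM with IFNg, 107 to 142 CPM with IFNa, 132 to 258 CPM with TNFa and 121 to 243 CPM with the mixture, mostly Itga4, and 1, 2, 1 and 2 of them rose. The 4 plasmacytoid dendritic cell markers summed to 710 to 1144 CPM without cytokine, 2896 to 3304 CPM with IFNg, 1342 to 1539 CPM with IFNa and 1650.5 to 3888 CPM with the mixture, and 1, 1 and 3 of them rose. The most abundant of them was Irf8 with IFNg (mean 2447 CPM) and with the mixture (1902 CPM). Without cytokine (410 CPM) and with IFNa (589 CPM) it was Bst2. The 3 endothelial markers, mostly Flt1, summed to 13.5 to 22.2 CPM without cytokine, 37.9 to 49.0 CPM with IFNg, 66.5 to 85.1 CPM with IFNa and 72.2 to 123 CPM with the mixture, and 1 of them rose in each. Over all genes tested, 9.41% rose with IFNa, 8.57% with IFNg and 15.7% with the mixture. With TNFa 8.10% changed in either direction, and with IL-6 0.978%. The part of these marker genes in the rise of the 5 genes was not tested. Fas counts, 0 to 136 reads a library, were too low to check the strain labels.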

How the data were processed

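RNA-seq was made from the 24 libraries described above, with a directional kit per the labels' protocols. The submitters' processing notes name cutadapt 2.1, STAR 2.7.1a and the mm10 build. The authors deposited raw counts per gene with a length column. No counting program or strand setting is named there. Tests on the counts used edgeR 4.0.16 in R 4.3.3 (robust quasi-likelihood F test after filterByExpr and TMM), fitting 18 cultured (14626 genes) and 6 adult libraries (13799 genes) separately, with Benjamini-Hochberg adjustment over all genes tested and calls at an adjusted p under 0.05. SE was the size of the log2 fold change over the root of F. The script was tested on simulated data. Members and lists were chosen with earlier results of these data known. Named from each list were up to 3 called genes with the largest change per comparison, of which those described are a part, and counterpart genes given for contrast (Uba1, Ube2l3, Irf9) were chosen after their values were seen. Some list genes are not reported here. Pattern neighbours were the 3 genes with the highest r. Overlap between groups was read for single genes and marker sums, and its share over all genes was not counted. Alternatives used DESeq2 1.42.0, limma-voom (limma 3.58.1), other filters and scalings, left-out libraries and a replicate block. Same-numbered cultured libraries deviated together in 45 of 45 pairs (r 0.183 to 0.687), so the numbers were read as pairs for the ratios within numbers. The main tests did not pair libraries by number, and only the replicate block did. In adults 2 of 3 pairs deviated together (0.0607 to 0.156), and no ratios within numbers were taken. Libraries of 1 group differed by more than counting error in 24 of 24 pairs, with a chi-square per degree of freedom of at least 5.07. The labels name no batch.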

Additional observations from a re-analysis of the deposited data

How the results depend on the processing

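The 5 genes were called with the mixture under every alternative run. With IFNa, 4 to 5 were called when a library was left out. Ranges without 1 library were 2 to 3 genes in adults, 2 to 4 with IFNg, 0 to 1 for IFNg against IFNa, 1 to 3 for the mixture against IFNg, and 0 for IL-6, TNFa and the mixture against IFNa. Over all genes the ranges were 4733 to 6519 in adults, 1240 to 1522 with IFNg, 53 to 94 with IL-6, 1415 to 1979 with IFNa, 795 to 1004 with TNFa, 3812 to 4406 with the mixture, 325 to 597 for IFNg against IFNa, 681 to 1115 for the mixture against IFNa and 1333 to 1887 for the mixture against IFNg.

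With the replicate block, pairing libraries by number, more genes were called: 3468 with IFNg (1886 without), 714 with IL-6 (143), 3712 with IFNa (2118), 2542 with TNFa (1184), 2058 for IFNg against IFNa (756), 2689 for the mixture against IFNa (1161) and 3844 for the mixture against IFNg (2089). Of the 5 genes 4 were called for IFNg against IFNa, and beside the values in the report the block changed no other call of theirs. DESeq2 called 373 genes with IL-6, 1193 for IFNg against IFNa and 1750 for the mixture against IFNa. Fits of only the 2 groups called 85 genes with IL-6 and 423 for the mixture against IFNa, and of the 5 genes 3 for IFNg against IFNa (with Isg15 at edgeR adjusted p = 0.0137 and Herc6 at 0.0143), 1 for the mixture against IFNa, and Herc6 for the mixture against IFNg (0.00506). A single fit of all 24 libraries called 231 genes with IL-6 and, in adults, 1 of the 5 genes.

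Leaving out replicate number 3 of all cultured groups, chosen after seeing the data, called 5 of the 5 genes with IFNg (Ube2l6 1.15, edgeR adjusted p = 0.00383, and Usp18 1.12, 0.000311), 2 with IL-6, 1 with TNFa, 4 for IFNg against IFNa, and 585 genes for the mixture against IFNa. Herc6 was called for the mixture against IFNg (1.04, 0.000309).

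Scaling by total counts alone gave a median log2 change over all genes of -0.47 with the mixture (-0.05 by TMM), -0.21 with IFNg (-0.02), -0.22 with IFNa (-0.04), 0.27 in adults (0.01), -0.26 for the mixture against IFNa (-0.02) and -0.25 for the mixture against IFNg (-0.01), and called 2387 and 3504 genes in the last 2. The share of called genes that were higher became 76.9% in adults (52.7% by TMM), 45.1% with IFNg (66.5%), 43.3% with IFNa (65.0%), 23.7% with the mixture (48.8%), 18.8% for the mixture against IFNa (52.4%) and 21.0% for the mixture against IFNg (45.2%, and 56.3% with relative log expression factors). There the uncalled differences between the mixture and IFNa became -0.075 for Herc6, -0.0072 for Uba7 and -0.22 for Ube2l6. Other sign changes were of uncalled values: with number 3 left out, Uba7 (0.069) and Ube2l6 (0.055) with TNFa. The log2 ranges without 1 library were, with IL-6 Isg15 -0.235 to 0.876, Ube2l6 -0.287 to 0.541, Herc6 -0.0639 to 0.922. They were, with TNFa Uba7 -0.241 to 0.208, Ube2l6 -0.42 to 0.413, Herc6 -0.177 to 1.41, Usp18 -0.215 to 1.22. They were, for the mixture against IFNa Ube2l6 -0.0865 to 0.167. They were, in adults Isg15 -0.0863 to 0.595.

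The 33 to 144 Isg15 reads and similar Usp18 levels in adults limit the precision of their strain differences. Nothing in the labels says what a replicate number stands for.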

Other observations

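The levels that set replicate number 3 apart were not limited to the ISG15 pathway. Irf7, a factor that amplifies type I interferon, and Ifnb1, which encodes interferon beta, were looked up after the values of the 5 genes were seen. In unstimulated cells Irf7 stood at 650, 857 and 2441 CPM in replicates 1, 2 and 3, so replicate 3 was 3.24 times the mean of the others. The same ratio was 3.23 with IL-6, 2.94 with TNFa, 2.1 with IFNg, 1.38 with IFNa and 1.72 with the mixture. Ifnb1 had 0, 0 and 5 reads in the unstimulated replicates, 0, 0 and 10 with IFNg, 0, 0 and 1 with IL-6, 4, 0 and 7 with TNFa and 0 in each IFNa replicate. With the mixture it had 34, 23 and 11 reads, the highest of the 8 groups. Adult MRL/lpr libraries held 2, 1 and 1 Ifnb1 reads and MRL/MpJ libraries 0. These counts are at or near the limit of detection in all groups but the mixture.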
